A study of Mus musculus with 12 samples.

Results

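The complement components and regulators followed here are 9 mouse genes, given by symbol: the recognition subunits C1qa, C1qb and C1qc, the protease C1ra, the opsonin precursors C4b and C3, the receptor C3ar1, and the inhibitors Serping1 and Cd59a. All 9 had a row in the table of 16482 genes, and 8 of them were among the 12623 genes with enough counts to be tested. C3ar1 was the member left out of the tests, and its counts are given below. The choice of these genes did not rest on a threshold in the data, but it was made with earlier results of these data known.

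Complement is a cascade of plasma and tissue proteins that tags surfaces for removal. In the classical pathway, C1q binds a target and the protease C1r becomes active. C1r activates the protease C1s, which cleaves C4 and C2. The resulting convertase cleaves C3 into the opsonin C3b and the peptide C3a. In the brain, microglia are known as the main source of C1q, reactive astrocytes as a source of C3 and C4, and C1q and C3 as tags in the pruning of synapses.

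RNA was measured in 12 whole-brain samples of C57BL/6 mice with a bulk form of MARS-seq, a method that counts tags at the 3' end of transcripts. The PBS group (4 samples, postnatal day 40) received phosphate-buffered saline and the CBE group (4 samples) received conduritol B epoxide (CBE), an inhibitor of the lysosomal enzyme glucocerebrosidase that is used in mice as a chemical model of neuronopathic Gaucher disease. The CBE+GZ-667161 group (4 samples, postnatal day 40) received CBE together with GZ-667161, an inhibitor of glucosylceramide synthase. All 3 groups thus share strain and tissue, and the CBE+GZ-667161 group carries CBE as well, so GZ-667161 was seen only on top of CBE. In the CBE group, replicates 2 and 3 were of postnatal day 34 and replicates 4 and 6 of day 40, whereas the other 2 groups held day 40 samples alone. Dose, sex and the number of animals behind a sample are not given in the labels, so a p-value reflects how much these samples varied, which may be technical.

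Library totals lay between 1753626 and 6499257 counts, lowest in both day 34 CBE libraries. Xist, expressed from the inactive X chromosome, was at 7.96 to 25.7 CPM (counts scaled to a common library size) in 5 libraries, of which 2 were PBS (replicates 4 and 5) and 3 were CBE+GZ-667161 (replicates 2, 3 and 5), and at most at 0.555 CPM in the other 7, which include all 4 CBE libraries. Ttr, abundant in choroid plexus, ranged from 11.3 to 517 CPM. Neuron, astrocyte and microglia markers were all detected in the table, and Gpr34 was the one microglia marker with no count in some libraries (CBE replicates 3 and 4). Libraries of the same group differed by more than sampling noise, since their counts over genes gave 3.53 to 13.3 as the ratio of chi-square to degrees of freedom, and none was merged.

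The 3 C1q genes lie side by side on chromosome 4 (mm10), within 18.7 kb, all on the minus strand: C1qb at chr4:136880129-136886187, C1qc at chr4:136889804-136893065 and C1qa at chr4:136895917-136898803. C3 lies at chr17:57203970-57228136 and C4b at chr17:34728380-34743882, both on the minus strand. C1ra is at chr6:124512405-124523443 (plus strand), C3ar1 at chr6:122847138-122856161 (minus strand), Serping1 at chr2:84765387-84775444 (minus strand) and Cd59a at chr2:104095801-104115354 (plus strand). The annotation has 1 gene that overlaps a member, the microRNA Mir6978 inside C3, which has no row in the table. C4b, C1ra and Cd59a each have a related gene (C4a, C1rb and Cd59b). Reads may have been split between the related genes where their sequences match, so these 3 members are uncertain in that respect. C1rb and Cd59b had no row in the table. C4a had 10, 21 and 14 counts over the PBS, CBE and CBE+GZ-667161 libraries, against 354, 1897 and 2096 for C4b.

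Upstream sequences are shown for 2 of the clustered C1q genes and for C3, the members whose levels moved together or by the widest margin. Each is the 250 bases before the annotated start in RefSeq (GRCm38.p6), read 5' to 3' on the gene's own strand, which is the minus strand for all 3: chr4:136886201-136886450 for C1qb, chr4:136892915-136893164 for C1qc and chr17:57228137-57228386 for C3. The RefSeq start of C1qc lies inside the gene as GENCODE gives it above, so most of the C1qc window, its NF-kappa-B type matches included, is within that gene, and the same holds for most of the C1ra window, which is not shown. Capitals mark matches on either strand to 1 of 4 searched motifs.
C1qb: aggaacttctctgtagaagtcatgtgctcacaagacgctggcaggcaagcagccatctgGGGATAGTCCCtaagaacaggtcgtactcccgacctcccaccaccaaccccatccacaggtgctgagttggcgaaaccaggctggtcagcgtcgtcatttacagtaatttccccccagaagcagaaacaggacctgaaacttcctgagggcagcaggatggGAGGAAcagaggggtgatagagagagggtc
C1qc: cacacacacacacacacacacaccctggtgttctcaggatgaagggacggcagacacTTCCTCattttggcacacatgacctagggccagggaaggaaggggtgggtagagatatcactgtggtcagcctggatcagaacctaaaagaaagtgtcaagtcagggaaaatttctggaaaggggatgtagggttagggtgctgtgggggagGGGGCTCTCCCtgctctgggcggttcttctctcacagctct
C3: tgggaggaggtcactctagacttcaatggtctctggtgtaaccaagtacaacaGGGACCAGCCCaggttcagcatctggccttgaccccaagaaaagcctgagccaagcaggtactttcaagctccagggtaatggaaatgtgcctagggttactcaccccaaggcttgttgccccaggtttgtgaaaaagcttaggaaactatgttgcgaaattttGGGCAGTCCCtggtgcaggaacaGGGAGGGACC
In C1qb the capitals hold an NF-kappa-B type match (GGG and CC with 5 free bases between) beginning 191 bases before the start and a PU.1/ETS core (GAGGAA) beginning 30 bases before it. C1qc holds the same pair in the other order, with the ETS core, on the opposite strand, beginning 193 bases before the start and overlapping NF-kappa-B type matches beginning 41 bases before it. C3 holds NF-kappa-B type matches at 3 places, beginning 197, 33 and 10 bases before the start, and no ETS core.

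Promoter entries were matched for 6 of the 9 members (C1qb, C1qc, C1ra, C3, C3ar1 and Cd59a). The NF-kappa-B type pattern was in 5 of these 6 and in 45.8% of all 32851 promoters of the same length, and the ETS core was in 3 of 6 (C1qb, C1qc and Cd59a) and in 23.3% of all. The interferon-stimulated response element core (GAAA, 2 free bases, GAAA) was in 1 of 6 (Cd59a) and in 2.98% of all, and the STAT pattern (TTCNNNGAA) was in none of the 6 and in 7.02% of all. The NF-kappa-B type pattern reads the same way on both strands at some sites, so overlapping matches were counted once per promoter. A match describes these letters in this window and is no measured binding site.

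Levels below are CPM after TMM scaling, and they are compared between samples of 1 gene and not between genes. With CBE against PBS, 7 of the 8 tested members rose and none fell, against 6.95% of all tested genes that rose, 4.04% that fell and 11% called in either direction (edgeR quasi-likelihood test, Benjamini-Hochberg adjusted p under 0.05). The median log2 fold change over the 8 members was 2.47, against -0.0149 over all tested genes. In those 7 members every CBE sample lay above every PBS sample, which held in either direction for 15.6% of all tested genes. Cd59a was the tested member that did not pass. In bulk tissue, a change in the number of cells of a type and a change in RNA per cell cannot be told apart.

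The recognition subunits rose to about the same extent. C1qa stood at 208, 263, 211 and 196 CPM in PBS replicates 2 to 5, at 1182 and 1502 CPM in the day 34 CBE samples and at 943 and 930.1 CPM in the day 40 ones. The lowest CBE sample was thus far above the highest PBS sample, and the day 34 samples were the higher of the 2 ages. The log2 fold change of C1qa was 2.37 ± 0.20 (SE, adjusted p = 5.16e-07, edgeR), or 5.18-fold.

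C1qb stood at 188, 208, 207 and 194 CPM in PBS, at 932 and 1162 CPM in the day 34 CBE samples and at 867 CPM in each of the day 40 ones. Its PBS samples were close to each other, with a mean of 199 ± 9.69 CPM (SD, n = 4), and none came near the CBE range. The log2 fold change was 2.26 ± 0.17 (adjusted p = 1.48e-07, edgeR). C1qc gave 102, 90.6, 100.1 and 81.5 CPM in PBS, 495 and 550.4 CPM in CBE at day 34, and 409 and 405 CPM in CBE at day 40. Its groups did not overlap either, and its log2 fold change was 2.31 ± 0.17 (adjusted p = 1.69e-07, edgeR).

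The shares of the 3 genes in the C1q signal stayed within overlapping ranges. C1qc made up 16.1% to 20.5% of the counts of the 3 C1q genes in PBS, 17.1% to 19.0% in CBE and 14.7% to 17.5% in CBE+GZ-667161. C1qa made up 40.7% to 46.9%, 42.2% to 46.7% and 45.3% to 48.9% in the same order. No test was run on these shares.

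C1ra encodes the protease C1r that C1q carries. It was a low gene, with 4 to 8 counts per PBS library, at 1.59, 0.851, 2.09 and 1.23 CPM in PBS. In CBE it was at 7.54 and 7.22 CPM at day 34 and at 8.40 and 9.60 CPM at day 40. The groups did not overlap, and here the day 40 samples were the higher ones. The log2 fold change was 2.57 ± 0.34 (adjusted p = 7.28e-05, edgeR).

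C4b and C3, the thioester proteins that become attached to a target, had the widest changes among the 8 tested members. C4b was at 25.1, 16, 14.7 and 22.9 CPM in PBS, at 282 and 283 CPM in CBE at day 34, and at 137 and 157 CPM in CBE at day 40. Both ages lay above all PBS samples, and the day 40 samples were the lower ones. C4b rose by 3.42 ± 0.27 on the log2 scale (adjusted p = 2.61e-07, edgeR), or 10.7-fold.

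C3 was near the bottom of detection in PBS, with 4, 7, 4 and 4 counts in replicates 2 to 5, which is 1.06, 1.49, 1.68 and 0.615 CPM. In CBE it was at 39.9 and 35.0 CPM at day 34 and at 19.6 and 28.5 CPM at day 40. No CBE sample came near the PBS range. C3 had the largest fold change among the 8 tested members, 4.72 ± 0.39 on the log2 scale (adjusted p = 3.7e-07, edgeR), with a 95% interval of 3.90 to 5.54.

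C3ar1, the receptor for the C3a peptide, had too few counts for the filter. The PBS libraries had 1, 1, 2 and 0 counts, the CBE libraries 6 and 6 at day 34 and 1 and 14 at day 40, and the CBE+GZ-667161 libraries 4, 3, 7 and 1. Both CBE ages held at least 1 library with several counts, but CBE replicate 4 had a single one, so the groups overlapped. Summed over libraries and scaled to library size, CBE was 12.3 times PBS (95% interval 4.29 to 48.4, counting error only). Without the filter on low counts, edgeR gave a log2 fold change of 3.33 ± 0.87 with an adjusted p of 0.0216. The authors' deposited table gives C3ar1 an adjusted p of 0.00772 for PBS and CBE.

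Of the inhibitors, Serping1 encodes C1 inhibitor, which inactivates C1r and C1s, and Cd59a encodes a membrane protein that blocks the membrane attack complex. Serping1 was at 14.0, 10.6, 7.12 and 8.61 CPM in PBS, at 53.4 and 76.1 CPM in CBE at day 34, and at 50.8 and 64.9 CPM in CBE at day 40. Its groups did not overlap and the 2 ages did. Serping1 rose by 2.58 ± 0.26 on the log2 scale (adjusted p = 3.59e-06, edgeR).

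Cd59a was at 11.6, 8.72, 7.96 and 9.54 CPM in PBS, and at 2.69 and 7.22 CPM in CBE at day 34 and 7.70 and 10.9 CPM at day 40. The groups overlapped, and CBE replicate 2, with 5 counts, was the lowest of all 12 libraries. The log2 fold change was -0.37 ± 0.33 with a 95% interval of -1.06 to 0.33 (adjusted p = 0.536, edgeR), which leaves room for a fall but not for a rise of the size seen in the other tested members.

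**Figure D1:**
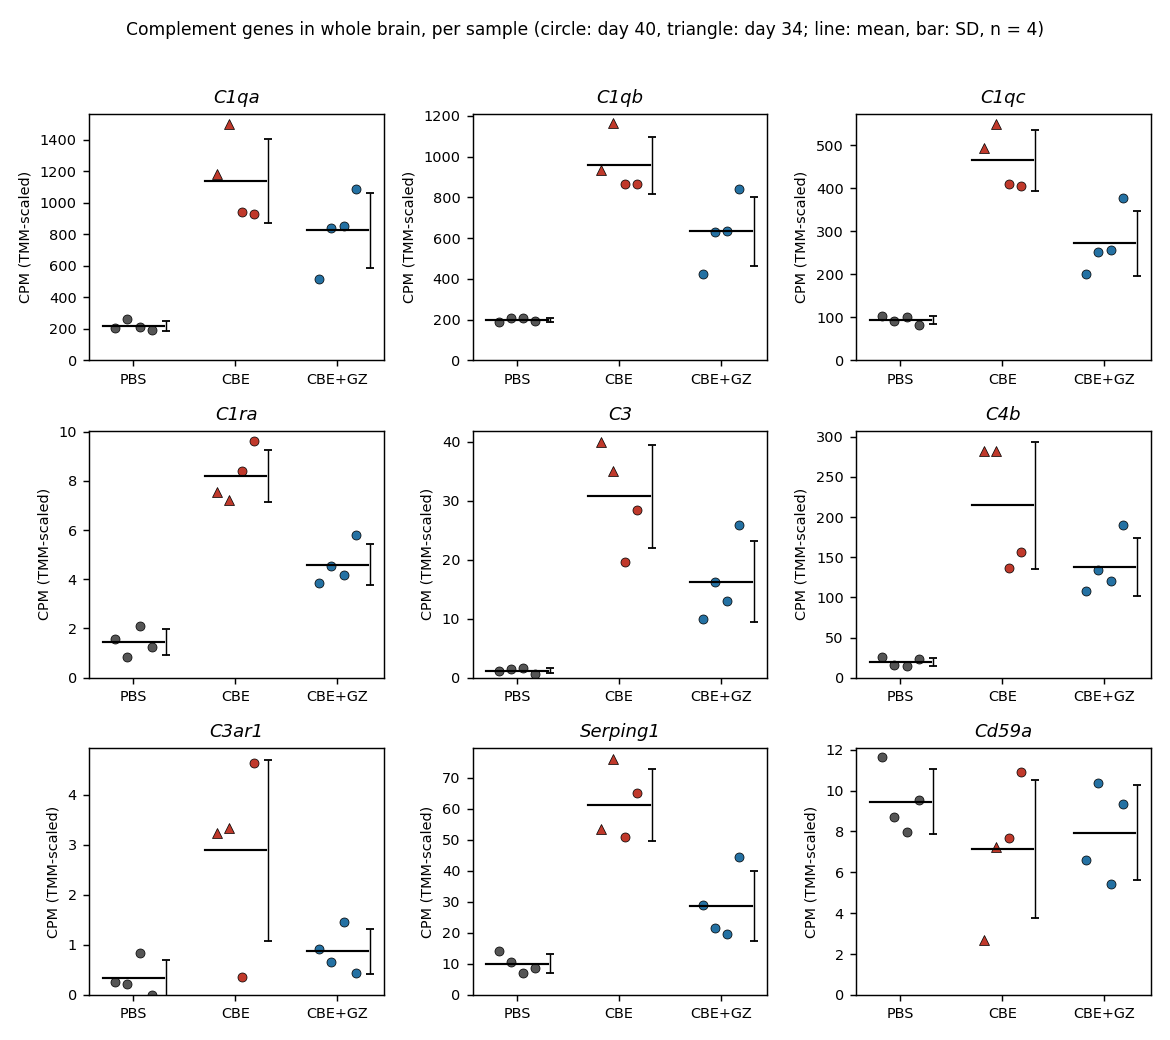
Level of each of the 9 members in every library, in CPM after TMM scaling, by group. Points are single libraries, bars are the group mean and SD (n = 4), and the lower SD bar of C3ar1 in PBS is cut where it would reach 0. In 7 members all CBE points lie above all PBS points, whereas the groups overlap in Cd59a and C3ar1.

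The members that rose with CBE did so beside other cell type markers. Of 12 tested microglia markers, 5 rose with CBE (among them Aif1, Csf1r, Cx3cr1 and Sall1), and the sum over all 13 was 489 to 514 CPM in PBS, 739 to 1426 CPM in CBE and 744 to 1026 CPM in CBE+GZ-667161. All 8 reactive astrocyte markers rose (among them Gfap, Vim, Serpina3n and Lcn2), with sums of 164 to 235 CPM in PBS and 2196 to 2642 CPM in CBE. Of 10 general astrocyte markers, 4 rose (Aldh1l1, Aqp4, Slc1a3 and Sox9) and none fell. Their sums overlapped, at 4034 to 4957 CPM in PBS and 4701 to 5054 CPM in CBE. The summed border macrophage and monocyte markers were 14.7 to 20.9 CPM in PBS and 22.1 to 53.4 CPM in CBE, with 1 of 5 tested markers called (Ms4a7). Of 8 neuron markers, 5 fell with CBE (Map2, Nefl, Nefm, Stmn2 and Tubb3). Over all tested genes, 6.95% rose and 4.04% fell with CBE against PBS. The part of these cell types in the members' changes was not tested.

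The members were also set against the summed microglia markers of the same library. C1qa was at 40.1% to 53.0% of that sum in PBS and at 99.4% to 125.9% in CBE, C1qb at 37.6% to 41.9% and 78.4% to 117.3%, and C1qc at 16.7% to 20.5% and 38.6% to 54.9%. None of these ranges overlapped, so the C1q genes stood higher in CBE also relative to this marker sum. The summed markers did not rise alike. Mean P2ry12 was 19.9 CPM in PBS and 21.3 CPM in CBE, and mean Aif1 23.9 and 99.8 CPM. The size of these ratios therefore depends on which markers are summed, and other sums were not tried. On average these ratios were 2.59, 2.46 and 2.52 times their PBS level for C1qa, C1qb and C1qc. The same ratio was 12.7 times PBS for C3, 5.25 times for C4b, 3.13 times for Serping1 and 3.09 times for C1ra, and it was 0.426 times PBS for Cd59a. The CBE samples lay above all PBS samples in 7 of the 8 tested members on this scale, against 1.83% of all tested genes. Cd59a lay below PBS throughout, but so did most genes, since the marker sum itself rose: the CBE and PBS ranges were apart in either direction for 60.9% of all tested genes, with a median ratio of 0.522 times PBS. These ratios are a description, and no test was run on them.

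**Figure D2:**
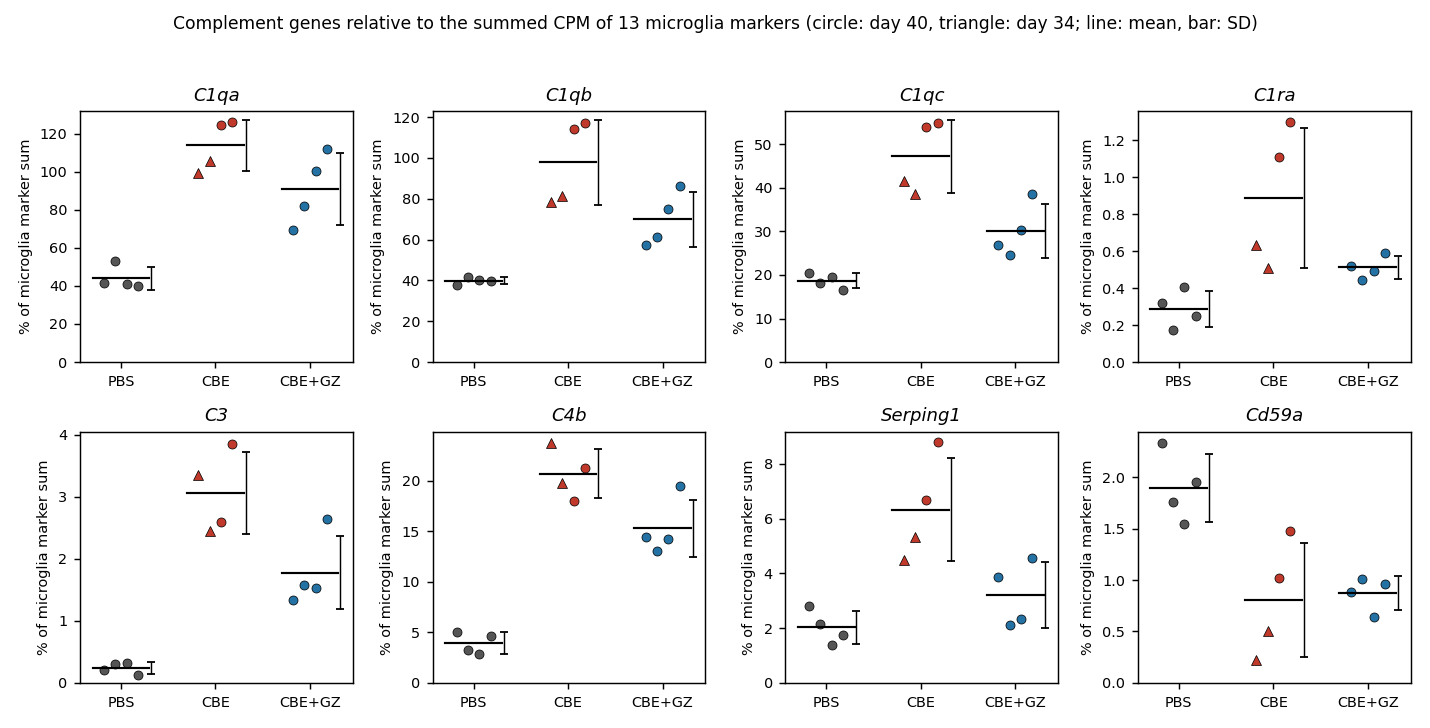
Each tested member as a percent of the summed CPM of 13 microglia markers in the same library, by group. Points are single libraries. The CBE points of C1qa lie at 99.4% to 125.9% and the PBS points at 40.1% to 53.0%. With both CBE ages together, the CBE+GZ-667161 points overlap the CBE points in all 8 members.

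With CBE+GZ-667161 against PBS, 7 of the 8 tested members rose (C1qa, C1qb, C1qc, C1ra, C3, C4b and Serping1) and none fell, against 3.11% of all tested genes that rose, 0.333% that fell and 3.45% called in either direction. This comparison shares the PBS samples with the previous one, so the 2 are not independent. These 7 members did not overlap between the groups, which held for 9.78% of all tested genes. The median log2 fold change over the 8 tested members was 1.69.

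C1qa was at 517, 839, 854 and 1092 CPM in CBE+GZ-667161 replicates 2 to 5, and its log2 fold change against PBS was 1.91 ± 0.20 (adjusted p = 1.31e-05, edgeR). C1qb was at 425, 627, 636 and 842 CPM, with a log2 fold change of 1.67 ± 0.16 (adjusted p = 7.55e-06, edgeR). C1qc was at 199.9, 253, 258 and 378 CPM, with a log2 fold change of 1.54 ± 0.17 (adjusted p = 2.02e-05, edgeR). In all 3 genes replicate 2 was the lowest and replicate 5 the highest of the group, and even replicate 2 lay above every PBS sample.

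C1ra was at 3.86, 4.55, 4.19 and 5.79 CPM in this group, 1.71 ± 0.35 on the log2 scale above PBS (adjusted p = 0.00714, edgeR). C3 was at 10, 16.2, 13 and 25.8 CPM, a log2 fold change of 3.78 ± 0.39 (adjusted p = 1.31e-05, edgeR). C4b was at 107, 134, 121 and 190.2 CPM, a log2 fold change of 2.78 ± 0.27 (adjusted p = 5.43e-06, edgeR). Replicate 5 was the highest in each of these, and C3 remained the member with the largest fold change over PBS.

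Serping1 was at 28.9, 21.7, 19.7 and 44.5 CPM, a log2 fold change of 1.46 ± 0.26 over PBS (adjusted p = 0.0023, edgeR). Cd59a was at 6.59, 10.4, 5.44 and 9.35 CPM, overlapping PBS, with a log2 fold change of -0.27 ± 0.31 (95% interval -0.94 to 0.39, adjusted p = 0.822, edgeR). C3ar1 counts were 4.06 times PBS when summed and scaled to library size (95% interval 1.29 to 16.8, counting error only). Relative to the summed microglia markers, 6 of the 8 tested members lay above all PBS samples, against 1.58% of all tested genes. Serping1 overlapped PBS on that scale, at 2.11% to 4.56% against 1.38% to 2.81%. Cd59a lay below PBS, but so did most genes. The ranges were apart in either direction for 63.6% of all tested genes, with a median ratio of 0.566 times PBS.

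**Figure D3:**
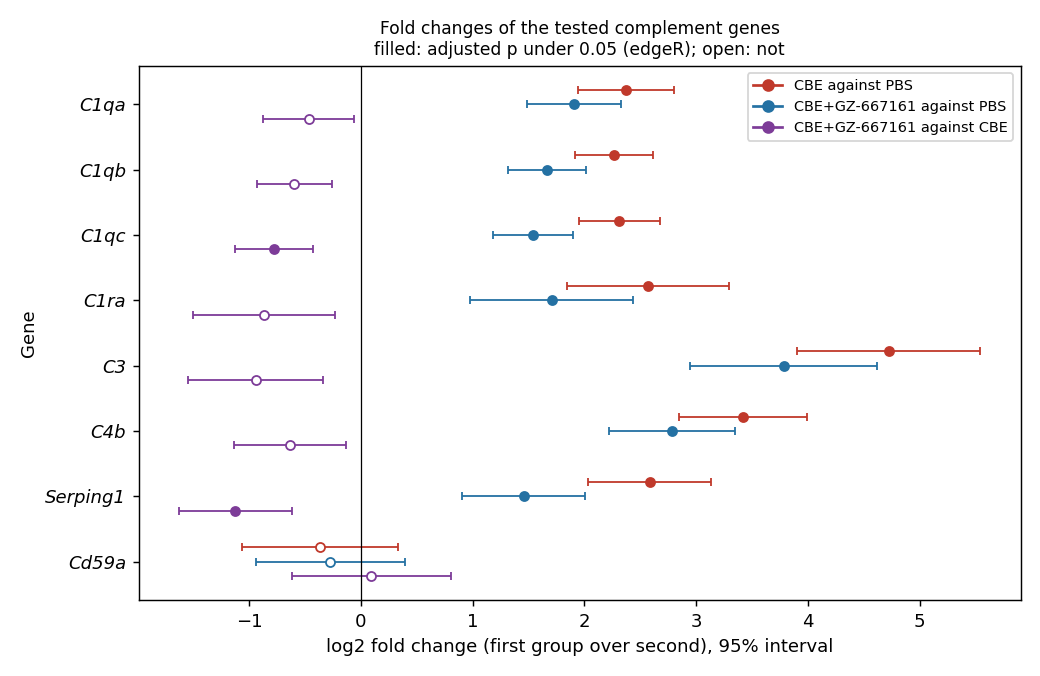
Fold changes of the 8 tested members on the log2 scale in the 3 treatment comparisons, as points with 95% intervals from the edgeR fit, with 4 libraries per group. C3 has the largest values over PBS, at 4.72 in CBE and 3.78 in CBE+GZ-667161, and Cd59a lies near 0 in all 3 comparisons.

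The order of the group means was PBS, CBE+GZ-667161, CBE from low to high in 8 of the 9 members, C3ar1 included, and CBE, CBE+GZ-667161, PBS in Cd59a. The step from PBS to CBE+GZ-667161 exceeded the spread in the 7 members named above. The step from CBE+GZ-667161 to CBE did so in fewer members, as follows.

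With CBE+GZ-667161 against CBE, 2 of 8 tested members fell (C1qc and Serping1) and none rose, against 0.832% of all tested genes that fell, 0.444% that rose and 1.28% called in either direction. The median log2 fold change over the 8 members was -0.71, against 0.00802 over all tested genes. The samples of C1qb, C1qc, C1ra and Serping1 did not overlap between the groups, 4 of 8 members, against 8.09% of all tested genes. This comparison shares the CBE samples with that of CBE and PBS, so lower values here and higher values there are not independent.

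C1qc fell by 0.78 on the log2 scale (SE 0.16, adjusted p = 0.0316, edgeR), from 465 ± 70.3 to 272 ± 75.2 CPM (mean ± SD, n = 4 each). Its highest CBE+GZ-667161 sample, replicate 5 at 378 CPM, was just under the lowest CBE sample at 405 CPM. Serping1 fell by 1.13 on the log2 scale (SE 0.24, adjusted p = 0.0316, edgeR), from 61.3 ± 11.6 to 28.7 ± 11.3 CPM. Replicate 5 was again the highest of its group at 44.5 CPM, below the lowest CBE sample at 50.8 CPM.

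These 2 calls rested on the full set of samples. C1qc was no longer called when any single CBE library or CBE+GZ-667161 replicate 2, 3 or 4 was left out, with adjusted p-values from edgeR of 0.0525 to 0.117. Serping1 was no longer called without CBE replicate 3, 4 or 6 or without CBE+GZ-667161 replicate 2, 3 or 4, with adjusted p-values of 0.0505 to 0.119. Without CBE+GZ-667161 replicate 5, in contrast, 4 members were called, since C1qb (adjusted p = 0.0167) and C3 (adjusted p = 0.0368) joined them. With Xist as a covariate neither C1qc (adjusted p = 0.160, edgeR) nor Serping1 (adjusted p = 0.144, edgeR) was called, while the log2 fold changes were -0.71 and -1.14.

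The other C1q genes gave log2 fold changes of -0.60 ± 0.16 for C1qb (adjusted p = 0.0694, edgeR) and -0.47 ± 0.19 for C1qa (adjusted p = 0.236, edgeR). C1qb did not overlap between the groups, with 425 to 842 CPM against 867 to 1162 CPM, while C1qa did. C1ra, at 3.86 to 5.79 against 7.22 to 9.60 CPM, gave -0.86 ± 0.30 (adjusted p = 0.162, edgeR), with few counts behind each value. C3 gave -0.94 ± 0.29 (95% interval -1.55 to -0.34, adjusted p = 0.106, edgeR) and C4b -0.64 ± 0.24 (95% interval -1.14 to -0.13, adjusted p = 0.191, edgeR), and both overlapped through replicate 5.

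Cd59a gave 0.09 ± 0.34 (95% interval -0.62 to 0.80, adjusted p = 0.923, edgeR), an interval that allows a change of either sign. The summed C3ar1 counts were 0.33 times those of CBE after scaling (95% interval 0.163 to 0.643, counting error only), and edgeR without the filter gave an adjusted p of 0.321. DESeq2 called 3 members, adding C1qb (adjusted p = 0.0168) to C1qc and Serping1. The authors' deposited table calls 8, 7 and 3 of the 9 members for PBS and CBE, PBS and CBE+GZ-667161, and CBE and CBE+GZ-667161.

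Replicate 5 of CBE+GZ-667161 was the highest of its group in 7 of the 9 members and replicate 2 the lowest in 6. Replicate 5 also had the highest summed reactive astrocyte markers of the group, 1412 CPM against 630.5 to 705 CPM in the other 3 samples. Of the 8 reactive astrocyte markers, 6 fell with CBE+GZ-667161 against CBE, whereas none of 12 tested microglia markers was called (1 at an unadjusted p under 0.05). Of 10 general astrocyte markers, 2 fell (Aldoc and Slc1a3), with sums of 4105 to 4596 CPM against 4701 to 5054 CPM in CBE. Over all tested genes, 0.832% fell and 0.444% rose in this comparison. Relative to the summed microglia markers, with both CBE ages together, the CBE and CBE+GZ-667161 ranges overlapped in all 8 tested members. They were apart for 3.91% of all tested genes. The day 40 CBE samples alone lay above all CBE+GZ-667161 samples for C1qa, C1qb, C1qc, C1ra, Serping1 and Cd59a, but not for C3 and C4b. For C1qb they were at 114.4% and 117.3%, against 57.1% to 86.2%. The share of all genes apart at day 40 alone was not computed. The part of either cell type in the lower levels was not tested.

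Age bears on this comparison, because the CBE+GZ-667161 samples were all of day 40. Within day 40, that is without the 2 day 34 CBE samples, no member was called (edgeR), while over the whole table this fit called 692 of 13606 genes, against 56 higher and 105 lower of 12623 with all samples. Serping1 kept nearly its size, -1.05 (adjusted p = 0.0504), and C1qc was at -0.58 (adjusted p = 0.093). C1ra was at -0.99, C3 at -0.60, C1qb at -0.45 and C1qa at -0.18 on the log2 scale. C4b was at -0.09 (adjusted p = 0.854), against -1.06 when the day 34 CBE samples were used instead.

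The members called for CBE over PBS kept their calls with the CBE samples of either age. The PBS samples were all of day 40, so the fold changes from day 34 CBE samples mix age with treatment. With the day 40 CBE samples alone, C4b was 7.32-fold and C3 20.9-fold above PBS, and with the day 34 samples alone 14.3-fold and 33.0-fold. C1qb was 4.34-fold and 5.32-fold above PBS with the day 40 and the day 34 CBE samples. Serping1 was 5.65-fold and 6.42-fold above PBS in the same order, and C1ra 6.46-fold and 5.37-fold.

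**Figure D4:**
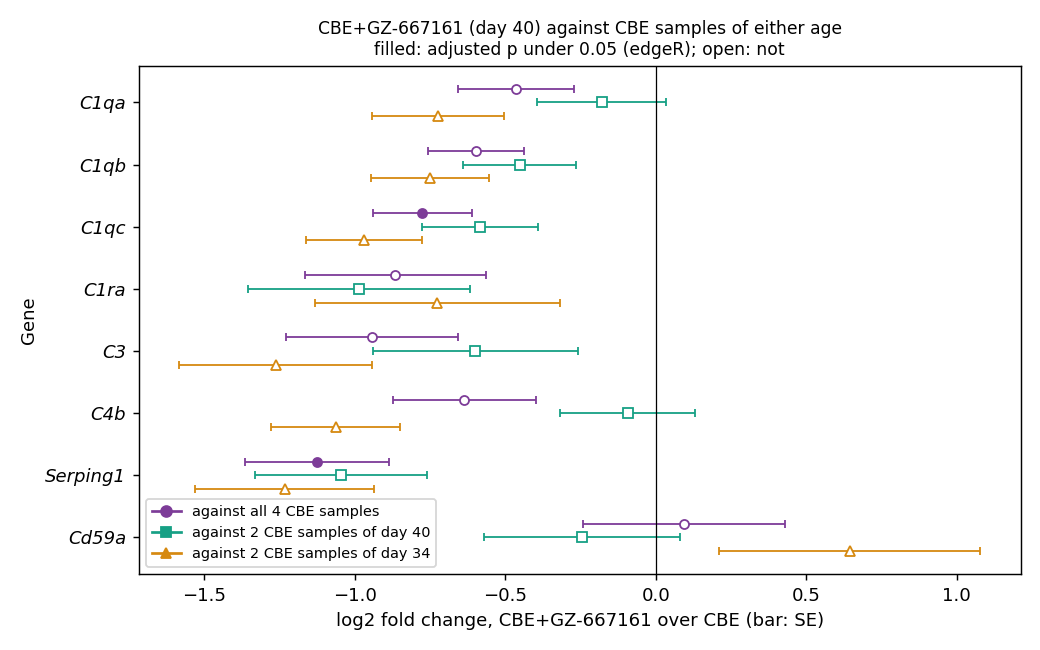
Fold changes of CBE+GZ-667161 against CBE on the log2 scale for the 8 tested members, with all 4 CBE samples, with the 2 CBE samples of day 40 and with the 2 of day 34. Bars are standard errors of the edgeR fit. C4b moves from -1.06 with day 34 samples to -0.09 with day 40 samples, while Serping1 stays between -1.23 and -1.05.

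Between the ages within CBE, day 40 against day 34 with 2 samples each, no member was called by edgeR, against 0.665% of all tested genes, and 1 member had an unadjusted p under 0.05. That member was C4b, lower at day 40 by -0.94 ± 0.25 on the log2 scale (adjusted p = 0.0884, edgeR), and DESeq2 called it with an adjusted p of 0.0147. Its samples were at 282 and 283 CPM at day 34 and at 137 and 157 CPM at day 40. The 2 ages did not overlap in 7 of the 8 tested members, which with 2 samples each also held for 48.1% of all tested genes. The direction differed among them, with lower values at day 40 for the C1q genes, C3 and C4b and higher ones for C1ra and Cd59a.

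The summed microglia markers were 1189 and 1426 CPM at day 34 and 758 and 739 CPM at day 40. Of 12 tested markers 2 fell (Csf1r and Fcrls), beside 0.404% of all tested genes. The C1q genes were not lower at day 40 relative to the summed microglia markers. C1qc was at 54.0% and 54.9% of it at day 40 and at 41.6% and 38.6% at day 34, and the day 40 values lay above those of all 4 CBE+GZ-667161 samples, 24.6% to 38.7%. The summed reactive astrocyte markers were 2250 and 2196 CPM at day 34 and 2642 and 2565 CPM at day 40.

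The rest of the pathway was read from a list of 57 other complement genes, receptors and regulators, of which 34 had a row and 20 were tested. With CBE against PBS, 6 rose and 1 fell of the 20, with a median log2 fold change of -0.0047, beside 6.95% and 4.04% of all tested genes. With CBE+GZ-667161 against PBS 4 rose and 1 fell (median 0.0934), beside 3.11% and 0.333% of all tested genes. Against CBE none rose and 1 fell (median 0.00025), beside 0.444% and 0.832% of all tested genes. The terminal components C6, C7, C8a, C8b and C9 and the alternative pathway genes Cfb and Cfd were among the listed genes without a row. No level could be read for them.

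Itgam, Itgax and Itgb2 encode the chains of complement receptors 3 and 4, which bind fragments of C3 on phagocytes. Itgb2, the shared beta chain, was at 6.09, 5.96, 8.80 and 6.15 CPM in PBS, at 38.8, 38.3, 58.1 and 46.7 CPM in CBE, and at 18.9, 39.6, 38.7 and 36.5 CPM in CBE+GZ-667161. Both treated groups lay above PBS, by 2.80 ± 0.25 and 2.34 ± 0.25 on the log2 scale (adjusted p = 8.77e-07 and 1.35e-05, edgeR). Itgax was nearly absent from PBS, at 0, 0.213, 0.419 and 1.08 CPM, and was at 5.93 to 13.9 CPM in CBE and 6.82 to 9.35 CPM in CBE+GZ-667161. Its log2 fold changes over PBS were 4.0 ± 0.52 and 4.01 ± 0.51 (adjusted p = 5.96e-05 and 7.85e-05, edgeR). PBS replicate 5 held 7 of the 9 PBS counts of Itgax, and without it these log2 fold changes were 5.26 and 5.26.

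Itgam differed from these by age. It was at 15.1, 14.3, 17.6 and 12.5 CPM in PBS, at 39.3 and 58.3 CPM in CBE at day 34, at 16.5 and 20.2 CPM in CBE at day 40, and at 34.3, 53.3, 46.7 and 44.1 CPM in CBE+GZ-667161. The day 40 CBE samples overlapped PBS, and all 4 CBE+GZ-667161 samples were above them. Against PBS, Itgam gave 1.15 ± 0.31 in CBE (adjusted p = 0.0233, edgeR) and 0.32 with the day 40 CBE samples alone (adjusted p = 0.386), and 1.61 ± 0.30 in CBE+GZ-667161 (adjusted p = 0.00329). The CBE call was also lost with Xist as a covariate (adjusted p = 0.054) and without PBS replicate 5 (adjusted p = 0.063), CBE replicate 2 (0.0629) or CBE replicate 3 (log2 fold change 0.76, adjusted p = 0.0766). Day 40 against day 34 within CBE was -1.41 ± 0.26 (adjusted p = 0.0298, edgeR), a call lost without any single CBE library (adjusted p = 0.052 to 0.275) and with the replicate block (0.173).

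C2, the substrate that C1s cleaves beside C4, was at 1.23 to 2.65 CPM in PBS, 4.55 to 7.54 CPM in CBE and 3.90 to 11.1 CPM in CBE+GZ-667161, with no overlap with PBS in either group. Its log2 fold changes over PBS were 1.69 ± 0.42 and 1.79 ± 0.40 (adjusted p = 0.0149 and 0.0162, edgeR). The CBE call was lost without PBS replicate 5 (adjusted p = 0.0551), without the day 34 CBE samples (0.0748), with Xist as a covariate (0.0596) and with the replicate number as a block (0.0504), and the CBE+GZ-667161 call when PBS replicate 3, PBS replicate 5, or replicate 4 or 5 of CBE+GZ-667161 was left out (adjusted p = 0.0597 to 0.0742).

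Among regulators, Clu, which encodes clusterin, an inhibitor of the terminal complex, was at 2143, 1723, 1906 and 1887 CPM in PBS and at 3454, 3083, 3339 and 3070.1 CPM in CBE. It rose by 0.76 ± 0.10 on the log2 scale (adjusted p = 7.68e-05, edgeR). In CBE+GZ-667161 it was at 2117 to 2686 CPM, below every CBE sample, at -0.48 ± 0.10 against CBE (adjusted p = 0.0316, edgeR) and 0.28 ± 0.10 against PBS (adjusted p = 0.194). The Clu call against CBE held against CBE replicates 4 and 6, of day 40 (adjusted p = 0.0467), and was lost against replicates 2 and 3, of day 34 (0.164), with Xist as a covariate (0.105) and with only the groups compared (0.0653). It was also lost when CBE replicate 2, 4 or 6, or replicate 2, 3 or 4 of CBE+GZ-667161, was left out (adjusted p = 0.0628 to 0.11).

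Cr1l, a membrane regulator of C3 cleavage, was at 5.45 to 7.41 CPM in PBS and 10.9 to 15.6 CPM in CBE, a log2 fold change of 0.94 ± 0.28 (adjusted p = 0.0378, edgeR). Nptx2, a neuronal pentraxin listed for its reported binding of C1q, fell by 0.73 in CBE (SE 0.21, adjusted p = 0.0359) and by 0.98 in CBE+GZ-667161 (SE 0.21, adjusted p = 0.0109) on the log2 scale. The Cr1l call was lost without any single library of PBS or CBE (adjusted p = 0.0521 to 0.0894), with the replicate block (0.127), with Xist as a covariate (0.091) and with the CBE samples of day 40 (0.137) or day 34 (0.0919) alone. The Nptx2 call in CBE was lost when PBS replicate 2 or 4, CBE replicate 2, 3 or 6, or replicate 4 of CBE+GZ-667161 was left out (adjusted p = 0.0525 to 0.142). It was also lost with the replicate block (0.125) and with the CBE samples of day 40 (0.142) or day 34 (0.0872) alone. The Nptx2 call in CBE+GZ-667161 was lost without PBS replicate 2 (adjusted p = 0.0568). The 13 other tested genes of the list were not called in these comparisons, among them properdin (Cfp), vitronectin (Vtn) and the neuronal sushi domain genes Susd4, Sez6, Sez6l, Sez6l2, Csmd1 and Csmd2. Vtn was lower at day 40 than at day 34 within CBE, at -0.80 ± 0.16 on the log2 scale (adjusted p = 0.0325, edgeR), a call lost without PBS replicate 4 (adjusted p = 0.0559) or any single CBE library (adjusted p = 0.0708 to 0.27), or with the replicate block (0.230).

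**Figure D5:**
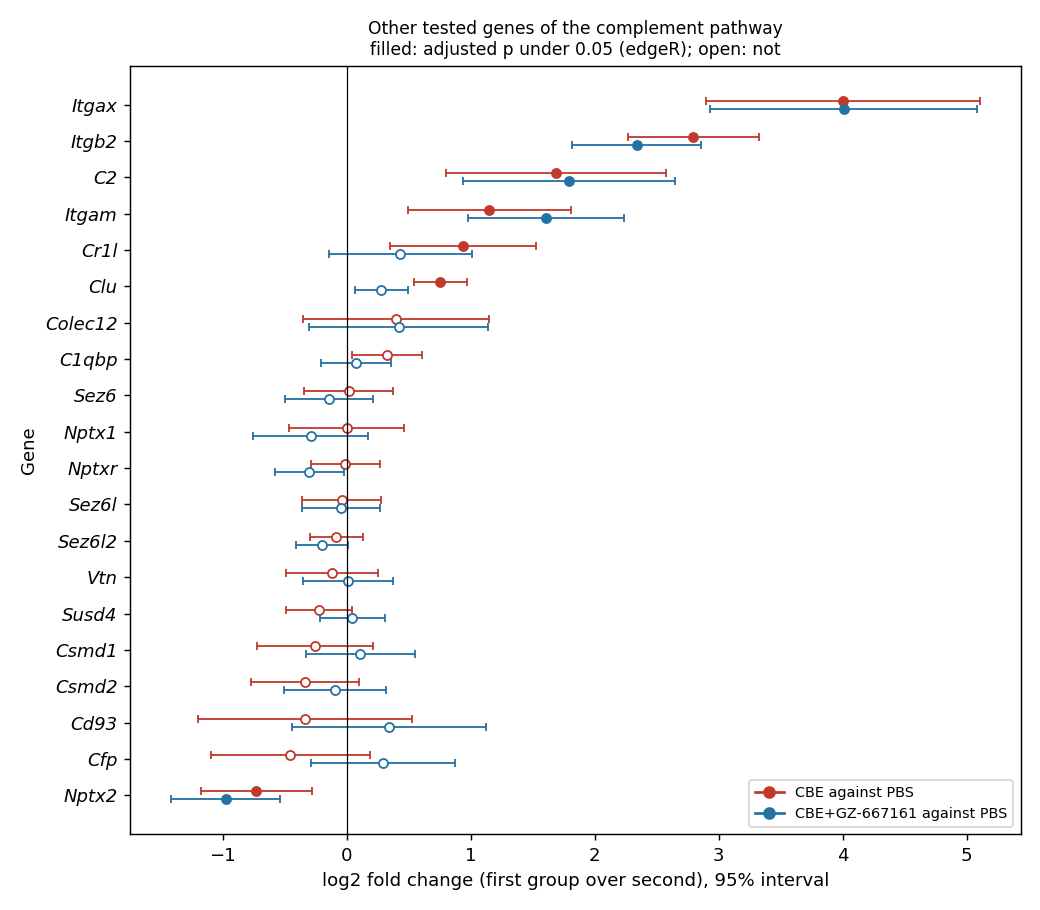
Fold changes over PBS on the log2 scale of the tested complement genes outside the 9 members, for CBE and for CBE+GZ-667161, with 95% intervals from the edgeR fit and 4 libraries per group. Itgax (4.0 and 4.01) and Itgb2 (2.80 and 2.34) lie far to the right, and most other genes lie near 0.

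For C1qb, C3 and C4b, the genes with the most similar pattern were taken as those with the smallest root mean square difference over the 12 samples, on log2(CPM + 1) after subtraction of each gene's PBS mean. For C1qb these were Ctsz (0.14), Laptm5 (0.19) and Ctsd (0.19), of which Ctsz and Ctsd encode lysosomal cathepsins and Laptm5 a lysosomal membrane protein. For C3 they were Cd180 (0.25), Bst2 (0.38) and Clec7a (0.40), and for C4b Ifit3 (0.26), Lgals3bp (0.28) and Bst2 (0.36), of which Ifit3 and Bst2 are interferon-stimulated genes. Ctsz followed C1qb with mean levels of 49.6, 256 and 163 CPM in PBS, CBE and CBE+GZ-667161. Ifit3 followed C4b with 9.14, 91.0 and 64.9 CPM, and Cd180 followed C3 with 3.93, 65.2 and 44.9 CPM.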

How the data were processed

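RNA of 12 whole-brain samples (4 each of PBS, CBE and CBE+GZ-667161) was sequenced with a bulk form of MARS-seq, per the labels' protocols. The authors deposited raw counts for each gene symbol, without normalization. The submitters' processing notes list HTSeq, HISAT 0.1.6, DESeq2 and cutadapt and the build mm10, with no role or order. Whether molecular identifiers or strand entered the counting was not given. From the authors' deposited comparisons, log2 fold changes and adjusted p-values were read for the members only.

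Of 16505 entries, 23 carried a date in place of a symbol (0.266% to 0.347% of counts) and were left out. filterByExpr (minimum count 10, minimum total 15) kept 12623 genes. Counts were scaled with TMM and tested in 1 fit of the 3 groups with edgeR 4.0.16 (glmQLFit, glmQLFTest, R 4.3.3). P-values were adjusted by Benjamini and Hochberg over all tested genes, with a threshold of 0.05, and the ages within CBE were compared in a fit of 4 groups. Alternatives were DESeq2 1.42.0, its size factors, no filter, the replicate number as a block, Xist as a covariate, only the groups compared, 1 CBE age, and leaving out each library. Genes were named by a rule: all members, the other complement genes that passed in a treatment comparison, and the 3 genes most similar to C1qb, C3 and C4b, with Vtn added after its values were seen. The members and all gene lists were chosen with earlier results of these data known. Positions are from GENCODE for mm10 and promoters from RefSeq (GRCm38.p6). Single values of 1 marker gene are not reported here.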

Additional observations from a re-analysis of the deposited data

How the results depend on the processing

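For CBE against PBS and CBE+GZ-667161 against PBS, the 7 called members kept their direction and call under every alternative run. C3ar1 joined them for CBE against PBS, making 8, where it was tested: with no filter and without PBS replicate 4, CBE replicate 4, CBE+GZ-667161 replicate 5 or the day 40 CBE samples (adjusted p = 0.00285 to 0.0243, edgeR). For CBE+GZ-667161 against CBE the count of 2 members fell to 0 with Xist as a covariate, with only the groups compared, without the day 34 CBE samples and without the day 40 CBE samples, and it ran from 0 to 4 when single libraries were left out. All but the first of these use fewer samples, and the cause was not tested further. Over all genes this comparison called 56 higher and 105 lower, against 489 in all with DESeq2, 82 with the block, 68 with Xist, 31 with only the groups compared, 692 without the day 34 CBE samples, 2 without the day 40 ones, and 5 to 269 without single libraries. For CBE against PBS, 751 genes against 1387 were called without the day 40 CBE samples. Between the CBE ages, DESeq2 called 1 member against 0, and over all genes 247 against 84, and 0 to 104 without single libraries. Values that changed sign were all uncalled, and the cause was not tested: Cd59a for CBE+GZ-667161 against CBE at -0.014 with Xist, at -0.25 without the day 34 CBE samples and from -0.15 to 0.39 without single libraries (below 0 without CBE replicate 2 or CBE+GZ-667161 replicate 3), and Serping1 between the ages, from -0.39 to 0.12 without single libraries (above 0 without CBE replicate 3 or 4).

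The labels do not say that replicate numbers pair samples, and deviations of same-numbered samples correlated at -0.08 to 0.25, so the numbers were not treated as pairs. With the replicate number as a block, 7, 7 and 2 members were called in the 3 treatment comparisons and 0 between the ages. Over all genes the block gave 82 calls for CBE+GZ-667161 against CBE and 9 between the ages, and it turned C1ra to -0.055 and Serping1 to 0.19 between the ages. Low totals limit C3ar1, C1ra and C3 in PBS, where libraries held 8 counts or fewer.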
